A study of Mus musculus with 36 samples.

Results

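The genes described here carry glucose into the cell and break it down to pyruvate, and then decide whether that pyruvate leaves as lactate or enters the mitochondrion. They are 33 listed mouse genes, taken for their place in the pathway and not for their values: glucose transporters, most enzymes of glycolysis, lactate dehydrogenase subunits, monocarboxylate transporters, and the kinases, phosphatase and subunits of the pyruvate dehydrogenase complex. All 33 were found by Ensembl identifier in each of the 5 deposited tables, among the 13045 genes that the tables share and the 14846 that any of them holds. All 33 passed the filter on low values in every table, where it removed 0 genes.

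The study asked how endothelial Notch ligands and ephrin-B2 shape the coronary vessels of the mouse embryo, and bulk RNA-seq was one of its readouts. At E12.5, whole hearts came from Jag1flox;Nfatc1-Cre embryos (4 mutant and 4 WT libraries) and from Dll4flox;Nfatc1-Cre embryos (2 mutant and 4 WT libraries), with 4 embryos pooled in each library. At E15.5, ventricles came from Dll4flox;Cdh5(PAC)-CreERT embryos (3 mutant and 4 WT libraries) and from Dll4GOF;Tie2-Cre embryos (3 mutant and 4 WT libraries), with 3 embryos in each library. At E16.5, ventricles came from single Efnb2flox;Nfatc1-Cre embryos (4 mutant libraries) and single WT embryos (4 libraries, numbered 1, 2, 3 and 5). Nfatc1-Cre acts in the endocardium and its descendants, the tamoxifen-inducible Cdh5(PAC)-CreERT in endothelium, and Tie2-Cre in endothelium, endocardium and blood cells. The libraries were made from the whole organ or from ventricles, so each value averages over all of their cells, of which the targeted ones are a part. The authors state that they discarded 2 *Dll4* mutant samples at E12.5 on the basis of *Dll4* levels and principal components, so the 2 that remain describe the libraries kept.

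Values are normalized counts per library, on a scale that the authors set separately in each table, and are listed in the order of the replicate numbers (2, 3 and 4 for the E15.5 mutants). Log2 fold changes compare mutant with WT after 0.5 is added to each value, and a gene is called, and said to rise or fall, where limma's adjusted p over all genes of the table is under 0.05. Recovered counts per library ran from 7827496 to 28464430. *Jag1* fell in its mutants (-0.82, adjusted p = 0.00653) and *Dll4* in its E12.5 mutants (-3.03, adjusted p = 0.000164, in libraries kept partly on its level). The other targeted genes missed the threshold: *Dll4* in the induced E15.5 mutants (-1.12, adjusted p = 0.0507), *Dll4* in the Dll4GOF mutants (0.28, adjusted p = 0.354) and *Efnb2* (-0.52, adjusted p = 0.297), all by limma. Among the induced *Dll4* mutants, number 3 stood apart with 20.7 normalized counts of *Dll4*, against 8.11 and 9.53 in the other mutants and 23.2 to 28.6 in WT. Cardiomyocyte markers summed to between 36648 and 59296 normalized counts per library, as fits heart tissue, and 0 of 12 were at 0 in any table.

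Glucose enters cells through facilitated transporters and is trapped by hexokinase. Phosphofructokinase commits it to glycolysis, and the pyruvate at the end is either reduced to lactate and exported or oxidized by pyruvate dehydrogenase, which pyruvate dehydrogenase kinases switch off. The embryonic heart is known to rely largely on glycolysis and to move towards mitochondrial oxidation as it matures. Many of these genes are known targets of the hypoxia-inducible factor HIF1, which acts when oxygen is low.

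Members of the glycolytic pathway rose, and none fell, after loss of *Jag1* or *Dll4*. Over the 5 comparisons, 9 of 165 member tests were called, all 9 higher in mutants, in 8 different genes. They were *Slc2a3*, *Aldoc* and *Pdk1* in *Jag1* mutant hearts, *Slc2a3*, *Slc2a4*, *Hk2* and *Pfkfb3* in *Dll4* mutant hearts at E12.5, and *Pfkp* and *Slc16a3* in *Dll4* mutant ventricles at E15.5. No member was called in Dll4GOF or *Efnb2* mutant ventricles. Of all genes, 1.75% (*Jag1*), 2.17% (early *Dll4*), 1.15% (late *Dll4*), 0% (Dll4GOF) and 0.0296% (*Efnb2*) were called. Calls over all genes leaned upward as well, with 156 higher and 89 lower in *Jag1* loss. They numbered 188 and 123 in early *Dll4* loss and 131 and 29 in late *Dll4* loss. In bulk tissue, a change in the number of cells of a type and a change in RNA per cell cannot be told apart.

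In *Jag1* mutants, 3 of 33 members were called, where 1.75% of the 13982 genes tested were called in either direction and 1.12% were called higher. At an unadjusted p under 0.05, 14 members were higher and 1 was lower, where 23.7% of all genes differed in either direction (1751 higher and 1564 lower). Every mutant library lay above every WT library for 5 members and below for 0, where the groups of 13.8% of all genes did not overlap (946 above and 984 below). The median log2 fold change of the members was 0.14 and that of all genes 0.00, with 25 members (75.8%) above 0 against 50.9% of all genes. Leaving out any 1 of the WT libraries, or mutant 2, left 1 member called, *Pdk1*. Those fits called 0.122% to 0.658% of all genes. Leaving out mutant 3 gave 6 members and 3.85% of all genes.

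In *Dll4* mutants at E12.5, 4 members were called, against 2.17% of 14302 genes called in either direction and 1.31% called higher. At an unadjusted p under 0.05, 15 members were higher and 1 was lower, where 21.4% of all genes differed (1518 higher and 1538 lower). Both mutant libraries lay above all WT libraries for 16 members and below for 1, where the groups of 31.5% of all genes did not overlap (2215 above and 2295 below). The members' median was 0.21 and that of all genes 0.00, with 27 members (81.8%) above 0 against 50.9% of all genes. The count of 4 was 0 without WT 2 or WT 4, where 0.267% and 0.253% of all genes were called. It was 1 without WT 1 (0.596% of all genes) and 2 without WT 3 (1.30%). A fit without either mutant rests on a lone mutant, which is assumed to vary as the WT libraries do.

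In *Dll4* mutants at E15.5, 2 members were called, against 1.15% of 13897 genes in either direction and 0.943% called higher. Here 15 members were higher and 2 lower at an unadjusted p under 0.05, where 14.2% of all genes differed (1137 higher and 838 lower). All mutants lay above all WT libraries for 15 members and below for 1, where 13% of all genes did not overlap (969 above and 831 below). The members' median was 0.15 where that of all genes was -0.00, with 22 members (66.7%) above 0 against 49.8% of all genes. Without mutant 3, the library with the highest *Dll4*, 8 members were called, and 4.13% of all genes. The count was 0 without mutant 2, WT 2 or WT 3 (0.0432%, 0.362% and 0.0796% of all genes). It was 1 without mutant 4, WT 1 or WT 4 (0.971%, 0.369% and 0.527%).

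In Dll4GOF mutants, 0 members were called by limma, edgeR, voom or DESeq2. Of all 13737 genes, 0% were called by limma and 0.204% by DESeq2. At an unadjusted p under 0.05, 1 member was higher and 1 lower, where 9.32% of all genes differed, and 1 member lay wholly above WT, where the groups of 8.95% of all genes did not overlap. In *Efnb2* mutants, 0 members were called by limma, and 1 by DESeq2, against 0.0296% of 13527 genes called by limma and 0.185% by DESeq2. There 10 members were higher and 0 lower at an unadjusted p under 0.05, where 6.34% of all genes differed (436 higher and 422 lower), and 5 lay wholly above WT, where 3.64% of all genes did not overlap (272 above and 220 below). The members' medians were 0.04 and 0.07 in these comparisons. In Dll4GOF mutants 22 members (66.7%) were above 0 against 50.3% of all genes, and in *Efnb2* mutants 26 (78.8%) against 49.5%. More members than not were thus above 0 in these 2 comparisons too.

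**Figure D1:**
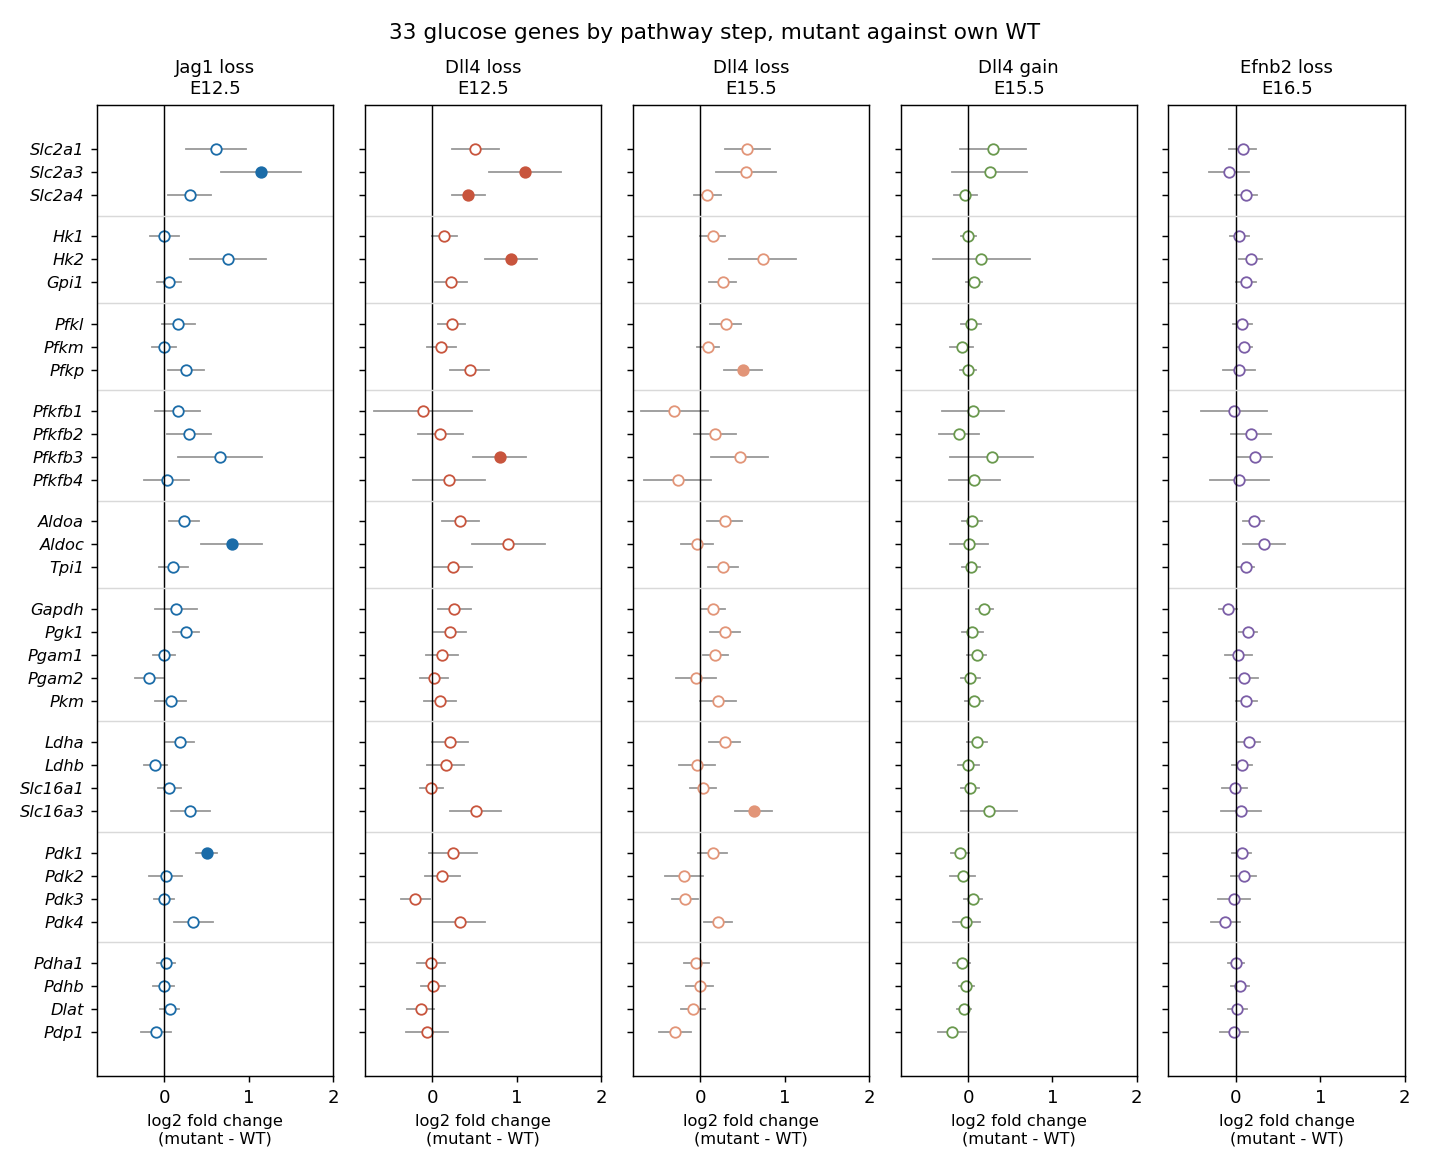
Log2 fold changes of the 33 members, mutant against WT, in the 5 experiments, ordered by pathway step, with each limma 95% interval as a bar and called members as filled circles. The called members all lie to the right of 0, with the largest value 1.15 for *Slc2a3* in *Jag1* mutants, while the pyruvate dehydrogenase complex and phosphatase lie between -0.30 and 0.06.

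Of the 6 called members with a promoter window, 4 are shown as examples from the hexokinase, aldolase, lactate export and kinase steps, searched for the core of the hypoxia response element, the letters ACGTG or GCGTG. Windows hold 250 bases before and 50 after the annotated start, 300 bases in all, from RefSeq on GRCm38.p6, and capitals mark the core on either strand, so that CACGT and CACGC are also in capitals. *Pdk1* lies at chr2:71872974-71873273 on the + strand, *Hk2* at chr6:82774405-82774704 on the - strand, *Aldoc* at chr11:78322823-78323122 on the + strand and *Slc16a3* at chr11:120948817-120949116 on the + strand. For *Pdk1* and *Aldoc* it is the first of 2 listed windows, and the second held 0 matches in *Pdk1* and 1 in *Aldoc*.
Pdk1: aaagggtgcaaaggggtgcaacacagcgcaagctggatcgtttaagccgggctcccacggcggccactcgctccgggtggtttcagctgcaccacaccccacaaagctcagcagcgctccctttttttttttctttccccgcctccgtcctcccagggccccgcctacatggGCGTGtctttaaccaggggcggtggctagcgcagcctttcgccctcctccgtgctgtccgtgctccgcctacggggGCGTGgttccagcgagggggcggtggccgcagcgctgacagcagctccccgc
Hk2: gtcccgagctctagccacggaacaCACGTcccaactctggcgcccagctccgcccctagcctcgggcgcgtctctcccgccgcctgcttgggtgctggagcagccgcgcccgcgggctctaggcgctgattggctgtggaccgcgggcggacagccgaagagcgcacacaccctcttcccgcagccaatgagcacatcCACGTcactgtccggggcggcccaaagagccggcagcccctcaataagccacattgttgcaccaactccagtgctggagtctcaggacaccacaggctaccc
Aldoc: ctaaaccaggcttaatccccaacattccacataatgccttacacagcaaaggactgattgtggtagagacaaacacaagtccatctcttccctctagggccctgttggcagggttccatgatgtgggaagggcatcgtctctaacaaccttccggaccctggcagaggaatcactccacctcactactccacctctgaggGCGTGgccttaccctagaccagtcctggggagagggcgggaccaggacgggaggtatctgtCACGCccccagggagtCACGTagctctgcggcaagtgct
Slc16a3: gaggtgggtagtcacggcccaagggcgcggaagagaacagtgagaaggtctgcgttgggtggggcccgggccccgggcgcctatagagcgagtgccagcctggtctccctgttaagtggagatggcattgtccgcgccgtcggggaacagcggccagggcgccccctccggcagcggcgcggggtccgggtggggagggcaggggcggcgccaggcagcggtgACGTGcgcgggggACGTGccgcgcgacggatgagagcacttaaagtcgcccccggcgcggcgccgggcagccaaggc
The core was in 34 of 47 windows of the members (72.3%) and in 43.8% of all 32851 windows. Counted by gene, it was in 26 of the 30 members with a window (86.7%) and in 46.7% of 27025 genes. All 6 called members with a window held it in at least 1 window, namely *Aldoc*, *Hk2*, *Pdk1*, *Pfkfb3*, *Pfkp* and *Slc16a3*. TGGGAA, the core letters bound by the Notch partner RBPJ, was searched on both strands and was in 13 of 47 member windows (27.7%) and in 25.6% of all windows. A match is a description of the letters, and base composition was not matched between the members and the other genes.

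*Slc2a3*, which encodes GLUT3, a high-affinity glucose transporter, had the largest rise of any member at E12.5. In the *Jag1* experiment it stood at 42.9, 57.1, 48.3 and 52.0 in the WT libraries and 186, 111, 71.1 and 103 in the mutants. All 4 mutants were above all WT libraries, and mutant 1 was far above the other 3. It rose 2.22-fold (log2 fold change 1.15, standard error 0.217, adjusted p = 0.036, limma). The call was missed without WT 1, 2, 3 or 4 or mutant 2 (adjusted p from 0.0611 to 0.105). In the *Dll4* experiment at E12.5 the values were 41.7, 41.5, 50.6 and 48.7 in the WT libraries and 74.9 and 128 in the mutants. Both mutants were above WT, and the transcript rose 2.14-fold (log2 fold change 1.10, standard error 0.185, adjusted p = 0.0324, limma), a call missed without WT 1, 2 or 4 or mutant 2 (adjusted p from 0.068 to 0.0976). At E15.5 the *Dll4* values were 25.6, 28.7, 25.5 and 30.6 in the WT libraries and 39.5, 29.9 and 55.2 in the mutants. Mutant 3 lay within the WT range, and the fold change missed the threshold (0.54, adjusted p = 0.145, limma). In Dll4GOF ventricles *Slc2a3* was at 28.8, 26.8, 33.2 and 36.5 in the WT libraries and 30.7, 28.8 and 58.1 in the mutants, with mutant 4 the highest library. In *Efnb2* ventricles it was at 24.2, 22.2, 20.1 and 23.3 in the WT libraries and 26.6, 19.4, 20.2 and 19.1 in the mutants, and the groups overlapped in both.

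*Slc2a4* encodes GLUT4, the insulin-responsive transporter of muscle. At E12.5 it was at 31.5, 32.7, 31.3 and 34.1 in the WT libraries and 39.7 and 48.0 in the mutants in the *Dll4* experiment. The groups did not overlap, and it rose 1.34-fold (log2 fold change 0.43, standard error 0.0861, adjusted p = 0.0468, limma). That call was kept in 1 of 6 fits that leave out a library, the one without mutant 1, and its adjusted p reached 0.239 without mutant 2. In *Jag1* mutants it was at 32.9, 32.8, 37.6 and 40.2 in the WT libraries and 57.3, 38.2, 42.9 and 40.4 in the mutants, with mutant 1 again highest and the other mutants reaching into or just above the WT range (0.30, adjusted p = 0.153, limma). The later experiments gave log2 fold changes of 0.09, -0.03 and 0.12, in values of 51.2, 48.6, 49.4 and 53.8 in the WT libraries and 51.3, 57.9 and 52.6 in the mutants for *Dll4* loss. Dll4GOF libraries held 63.4, 55.5, 54.9 and 57.7 in the WT libraries and 58.9, 54.4 and 56.5 in the mutants. *Efnb2* libraries held 72.3, 66.3, 69.9 and 77.2 in the WT libraries and 71.4, 81.1, 77.7 and 79.3 in the mutants. The groups overlapped in all of these.

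*Slc2a1* encodes GLUT1, the main glucose transporter of the embryonic heart, and was not called in any comparison of the reported fit. Of 11 other fits at the same threshold, 2 called it in *Jag1*, 1 in early *Dll4* and 5 in late *Dll4* mutants. In *Jag1* hearts it was at 386, 458, 417 and 491 in the WT libraries and 968, 692, 509.6 and 576 in the mutants. Each mutant was above each WT library, with a log2 fold change of 0.61 (adjusted p = 0.0673, limma). In *Dll4* hearts at E12.5 it was at 323, 315, 392 and 361 in the WT libraries and 428 and 568 in the mutants, and at E15.5 at 184, 161, 171 and 192 in the WT libraries and 258, 211 and 326 in the mutants. The groups were again apart, at 0.51 (adjusted p = 0.071) and 0.56 (adjusted p = 0.0525), by limma. Its Dll4GOF value, 0.29, was the largest of any member in that comparison, from libraries at 208, 195, 220.2 and 289 in the WT libraries and 239, 224 and 394 in the mutants. Mutant 4 and WT 4 were the highest of their groups, and the groups overlapped (adjusted p = 0.639, limma). In *Efnb2* ventricles, at 154, 129.9, 125 and 134 in the WT libraries and 163, 136, 137 and 137 in the mutants, they overlapped as well.

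*Hk2* encodes hexokinase 2, the inducible enzyme that traps glucose as its phosphate. In *Dll4* hearts at E12.5 it was at 106, 104, 105 and 109 in the WT libraries and 165 and 250.2 in the mutants. The WT libraries were tightly grouped and both mutants were well above them. It rose 1.91-fold (log2 fold change 0.94, standard error 0.135, adjusted p = 0.0212, limma), a call missed without WT 2 (adjusted p = 0.0534) or WT 4 (0.0799). In *Jag1* hearts the values were 95.6, 114, 108 and 120.0 in the WT libraries and 281, 215, 115 and 165 in the mutants. Mutant 3 lay within the WT range, and the log2 fold change of 0.76 missed the threshold (adjusted p = 0.0714, limma). In *Dll4* ventricles at E15.5 they were 109.5, 104, 96.1 and 122 in the WT libraries and 187, 123 and 252 in the mutants, a log2 fold change of 0.74 that was the largest of any member there (adjusted p = 0.0826, limma). All 3 mutants were above WT, mutant 3 only just. Dll4GOF libraries were at 119.8, 105, 121 and 179.5 in the WT libraries and 116, 103 and 247 in the mutants, where mutant 4 and WT 4 stood above all others. *Efnb2* libraries were at 128, 112, 116 and 128 in the WT libraries and 127, 140.4, 131 and 148 in the mutants, which overlapped. *Hk1*, the constitutive hexokinase, gave log2 fold changes from -0.00 to 0.15 over the 5 comparisons, and *Gpi1*, the isomerase of the next step, from 0.05 to 0.26, with 0 calls for either.

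*Pfkp*, the platelet-type phosphofructokinase-1 subunit, was called at E15.5. The *Dll4* ventricles held 303, 317, 302 and 318 in the WT libraries and 478, 354 and 505 in the mutants. All mutants were above WT, and mutant 3 was the lowest of them. It rose 1.42-fold (log2 fold change 0.51, standard error 0.104, adjusted p = 0.0424, limma), and the call was kept in 1 of the 7 fits that leave out a library, that without mutant 3. In *Dll4* hearts at E12.5 the values were 323, 264, 259 and 286 in the WT libraries and 352 and 417 in the mutants, in *Jag1* hearts 312, 379.8, 355 and 376 in the WT libraries and 500.3, 442, 363 and 400.1 in the mutants. The groups were apart in the former (0.44, adjusted p = 0.0627, limma) and overlapped in the latter (0.26, adjusted p = 0.141, limma). Dll4GOF libraries were at 331, 328, 308 and 312 in the WT libraries and 319, 309.5 and 329 in the mutants and *Efnb2* libraries at 385, 285, 336 and 339.5 in the WT libraries and 333, 349.9, 387 and 304 in the mutants. Both pairs of groups overlapped, with log2 fold changes of -0.00 and 0.03. The liver-type subunit *Pfkl* ran from 0.04 to 0.30 and the muscle-type *Pfkm* from -0.08 to 0.11, with 0 calls.

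*Pfkfb3* makes fructose-2,6-bisphosphate, the strongest activator of phosphofructokinase-1, and is known for driving glycolysis in sprouting endothelium. The *Dll4* hearts of E12.5 held 27.1, 36.4, 29.0 and 32.2 in the WT libraries and 47.3 and 62.3 in the mutants. Both mutants were above WT, and it rose 1.74-fold (log2 fold change 0.80, standard error 0.138, adjusted p = 0.0349, limma). The call was missed in 5 of 6 fits that leave out a library, with adjusted p up to 0.2 without mutant 2. In *Jag1* hearts the values were 32.5, 27.4, 27.4 and 34.4 in the WT libraries and 84.2, 48.7, 30.9 and 41.8 in the mutants. Mutant 1 was far above the rest and mutant 3 lay within WT (0.66, adjusted p = 0.122, limma). In *Dll4* ventricles they were 20.54, 21.6, 25.1 and 28.3 in the WT libraries and 37.2, 24.9 and 38.5 in the mutants, overlapping through mutant 3 (0.47, adjusted p = 0.182, limma). Dll4GOF libraries were at 26.1, 26.5, 28.1 and 42.7 in the WT libraries and 32.4, 27.2 and 56.2 in the mutants. Mutant 4 and WT 4 were again the highest, and the log2 fold change was 0.28 (adjusted p = 0.729, limma). *Efnb2* libraries were at 21.1, 21.2, 24.5 and 21.8 in the WT libraries and 23.3, 26.5, 24.4 and 29.99 in the mutants, with overlap (0.23, adjusted p = 0.762, limma). The related *Pfkfb1*, *Pfkfb2* and *Pfkfb4* had log2 fold changes from -0.31 to 0.29 and 0 calls, at WT means of 2.82 to 16.1 normalized counts.

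*Aldoc*, an aldolase best known from brain, rose in *Jag1* hearts. It was at 10.96, 10.7, 9.58 and 11.4 in the WT libraries and 28.7, 17.5, 17.2 and 14.7 in the mutants. The groups were apart, with mutant 1 the highest, and it rose 1.74-fold (log2 fold change 0.80, standard error 0.165, adjusted p = 0.039, limma). The call was missed without any 1 WT library or mutant 2 (adjusted p from 0.0666 to 0.127). For early *Dll4* loss the values were 12.9, 12.2, 8.92 and 13.7 in the WT libraries and 18.7 and 26.8 in the mutants. They were apart too, and the fold change of 0.90 just missed the threshold (adjusted p = 0.0533, limma). In *Dll4* ventricles at E15.5 they were 21.5, 20.7, 21.8 and 20.99 in the WT libraries and 20.8, 22.6 and 18.8 in the mutants, which overlapped at a log2 fold change of -0.04. Dll4GOF libraries held 22.6, 22.1, 22.7 and 20.9 in the WT libraries and 20.7, 19.5 and 27.1 in the mutants, and *Efnb2* libraries 14.1, 13.8, 17.1 and 18.2 in the WT libraries and 18.8, 17.7, 20.3 and 23.1 in the mutants. These overlapped as well, and 0.33 was the largest log2 fold change of any member in *Efnb2* mutants (adjusted p = 0.718, limma). The abundant muscle aldolase *Aldoa* ran from 0.05 to 0.33 and *Tpi1*, the triose phosphate isomerase, from 0.04 to 0.27, with 0 calls. DESeq2 called *Aldoa* in *Efnb2* mutants, where the limma value was 0.21 (adjusted p = 0.604), and in the *Jag1* and both *Dll4* loss comparisons. Library quality weights in limma called *Aldoa* and *Tpi1* in late *Dll4* loss.

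From triose phosphate to pyruvate, 0 of 5 members were called in any comparison. *Pgk1*, phosphoglycerate kinase, came closest in *Jag1* hearts, at 1203, 1189.7, 1196 and 1324 in the WT libraries and 1637, 1353, 1468 and 1415 in the mutants. The groups were apart, and the log2 fold change was 0.26 (adjusted p = 0.0763, limma). *Gapdh* ran from -0.10 in *Efnb2* mutants to 0.26 in early *Dll4* mutants. In Dll4GOF ventricles it was at 538, 524, 524 and 505 in the WT libraries and 598, 561 and 638 in the mutants. All mutants there were above all WT libraries (0.19, adjusted p = 0.354, limma), and it was the one member whose groups were apart in that comparison. *Pgam1* and *Pkm*, phosphoglycerate mutase and pyruvate kinase, ran from -0.00 to 0.18 and from 0.07 to 0.21. *Pgam2*, the muscle mutase, ran from -0.18 to 0.10. *Gapdh*, *Aldoa*, *Pgk1*, *Pgam1*, *Tpi1* and *Ldha* have processed pseudogene copies, of which *Pgam1-ps2* is in the tables, and reads that fit several copies may have been split between them, so their values are uncertain to that extent.

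*Slc16a3* encodes MCT4, which exports lactate. In *Dll4* ventricles at E15.5 it was at 172, 149, 142 and 152 in the WT libraries and 250.3, 199.7 and 271 in the mutants. Every mutant was above every WT library, and it rose 1.55-fold (log2 fold change 0.63, standard error 0.1, adjusted p = 0.0179, limma). Leaving out WT 2, WT 3 or mutant 2 took the adjusted p to 0.0562, 0.0717 and 0.127. For early *Dll4* loss they were 193, 177, 181 and 204 in the WT libraries and 222 and 326 in the mutants, apart but not called (0.51, adjusted p = 0.0829, limma). In *Jag1* hearts they were 234, 261, 264 and 327 in the WT libraries and 404, 309, 304 and 326 in the mutants. WT 4 was level with mutant 4, and the groups overlapped (0.31, adjusted p = 0.123, limma). Dll4GOF libraries were at 155, 147, 164 and 202 in the WT libraries and 164, 174 and 266 in the mutants and *Efnb2* libraries at 143, 97.5, 106 and 128 in the WT libraries and 142, 115, 116 and 117 in the mutants. They overlapped in both experiments. *Ldha*, the subunit that favours lactate, ran from 0.11 to 0.29, *Ldhb*, which favours pyruvate, from -0.11 to 0.16, and *Slc16a1*, which encodes MCT1, from -0.01 to 0.06, with 0 calls.

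*Pdk1*, a kinase that switches off pyruvate dehydrogenase, had the smallest adjusted p of any member. In *Jag1* hearts it was at 200.5, 195, 181 and 202 in the WT libraries and 298, 261, 273 and 270.2 in the mutants. All mutants lay well above all WT libraries, and it rose 1.42-fold (log2 fold change 0.50, standard error 0.0566, adjusted p = 0.00547, limma). The call held in each of the 8 fits that leave out a library (adjusted p from 0.00144 to 0.0241). Early *Dll4* libraries were at 220.4, 228, 186 and 216 in the WT libraries and 215 and 294 in the mutants, where mutant 1 lay within WT. In *Dll4* ventricles it was at 286, 310.0, 281 and 327 in the WT libraries and 335, 300.2 and 366 in the mutants. Dll4GOF libraries were at 336, 353, 322 and 325 in the WT libraries and 294, 319.6 and 324 in the mutants, and *Efnb2* libraries at 397, 381, 384 and 372 in the WT libraries and 386, 441, 393 and 387 in the mutants. All of these groups overlapped, with log2 fold changes of 0.25, 0.15, -0.09 and 0.07. *Pdk4*, the kinase of fasting and fat use, ran from -0.12 to 0.34, *Pdk2* from -0.19 to 0.12 and *Pdk3* from -0.20 to 0.06, with 0 calls.

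No call was made within the pyruvate dehydrogenase complex itself. *Pdha1* and *Pdhb*, the subunits of its first enzyme, *Dlat*, its second, and *Pdp1*, the phosphatase that switches it on, had 0 calls in the 5 comparisons. *Pdp1* came nearest in *Dll4* ventricles at E15.5, where its log2 fold change was -0.30 and every mutant lay below every WT library (adjusted p = 0.137, limma).

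**Figure D2:**
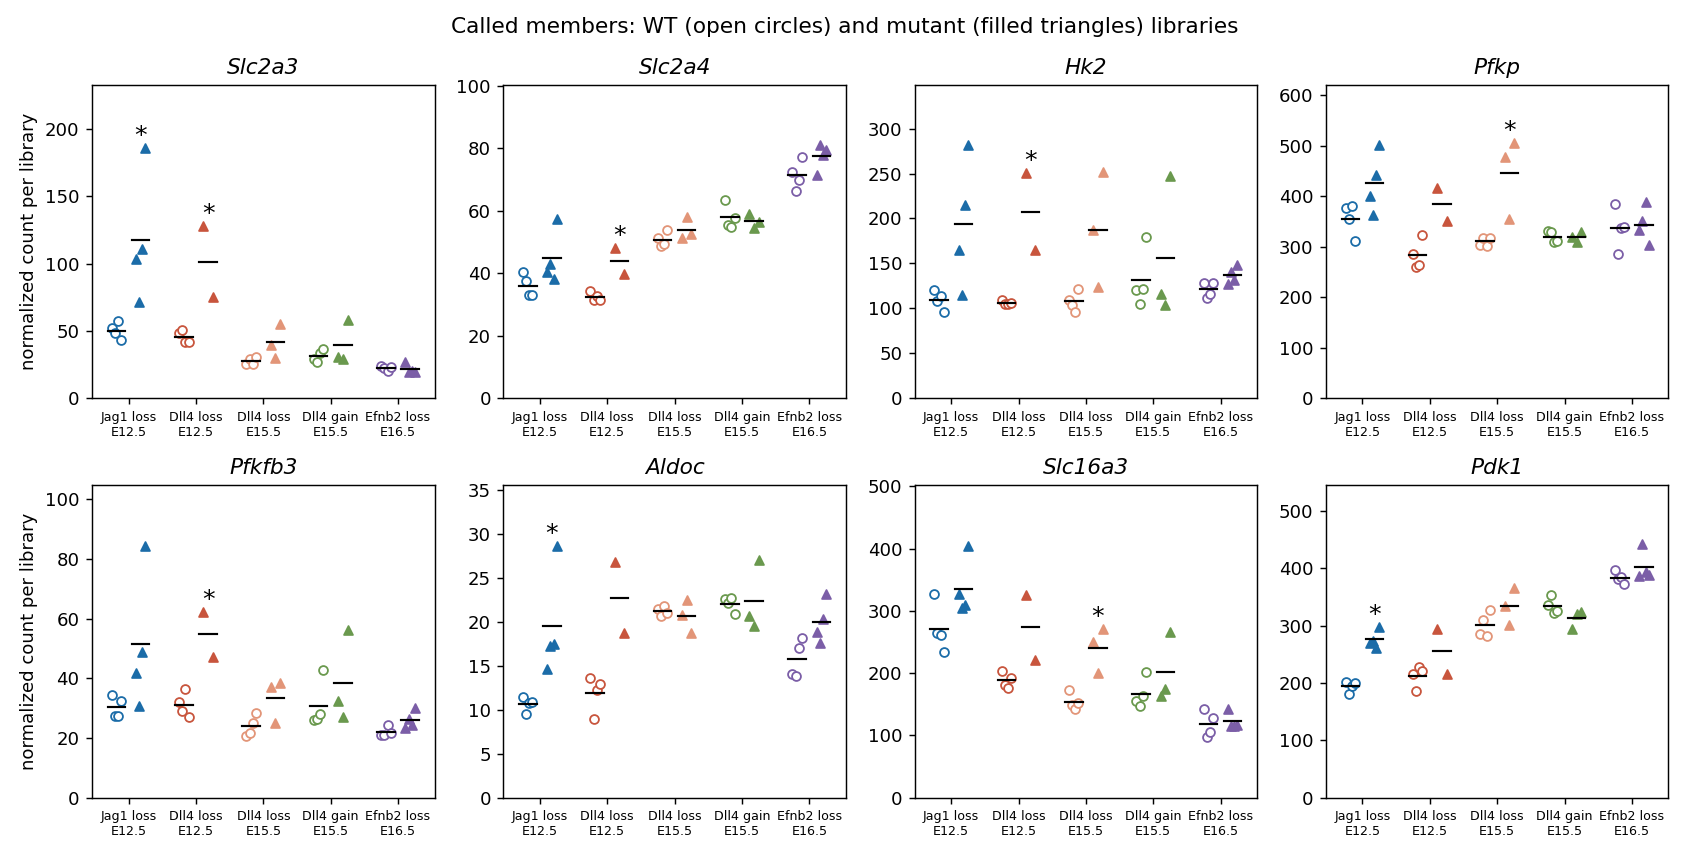
Normalized counts per library of the 8 called members, WT as open circles and mutants as filled triangles, with group means as lines, in the 5 experiments; an asterisk marks a call. In *Jag1* hearts the *Pdk1* mutants (261 to 298) lie clear of WT (181 to 202), and the Dll4GOF and *Efnb2* groups overlap in all 8 panels.

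Across the experiments of *Jag1* and *Dll4* loss, 18 members had a log2 fold change above 0 in all 3 and 2 (*Pdk3* and *Pdp1*) below 0 in all 3, where 16.8% and 15.7% of the 13340 genes in these tables did. Of the 33 members, 19 are described as targets of HIF1. That subset was above 0 for 17, 19, 17, 17 and 17 members in the *Jag1*, early *Dll4*, late *Dll4*, Dll4GOF and *Efnb2* comparisons, with medians of 0.23, 0.25, 0.29, 0.07 and 0.08. The 14 members outside it had medians of 0.02, 0.01, -0.04, -0.03 and 0.03. The subset was drawn up with earlier results of these data known, so these values are a description.

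Other HIF targets also rose in *Jag1* and *Dll4* mutants. Of 17 listed genes outside the pathway, 16 to 17 were measured, and 9, 14, 6, 0 and 0 rose in the 5 comparisons in the same order, with 0 that fell. Of all genes, 1.12%, 1.31% and 0.943% were called higher in the *Jag1*, early *Dll4* and late *Dll4* comparisons. This list too was chosen with earlier results of these data known, so its values are a description. The summed level of the listed genes was 1002 to 1112 in *Jag1* WT and 1383 to 2514 in mutants, 1087 to 1119 and 1665 to 2244 in early *Dll4*, and 1151 to 1279 and 1401 to 1796 in late *Dll4*. It overlapped in Dll4GOF, 1182 to 1350.5 and 1092 to 1729, with mutant 4 and WT 4 the highest, and not in *Efnb2*, 1163 to 1256 and 1289.8 to 1438. In *Jag1* and *Dll4* mutant hearts at E12.5, the paper found staining for hypoxia and for GLUT1 protein no different in intensity. By in situ hybridization of these hearts, the paper reported *Ldha* and *Pdk1* transcripts restricted to compact myocardium, as is normal. That is a statement on where the transcripts lay. The part of HIF or of low oxygen in the members' changes was not tested.

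Single libraries carried much of the spread. *Jag1* mutant 1 was the highest mutant for 25 of 33 members, Dll4GOF mutant 4 for 24, and early *Dll4* mutant 2 for 24, while late *Dll4* mutant 3 was the lowest for 19. WT libraries did so too. *Jag1* WT 4 was the highest WT library for 24 members and *Efnb2* WT 1 for 18. The lowest WT library was early *Dll4* WT 3 for 24 members, late *Dll4* WT 3 for 23 and *Efnb2* WT 2 for 19. Red cell transcripts were uneven in *Jag1* mutants, where the sum of 13 erythroid markers was 7423 to 37322 against 11069 to 14894 in WT, led by *Hbb-y*, with 2 that rose and none at 0. *Jag1* mutant 1 held the highest and mutant 4 the lowest erythroid sum. Endothelial markers summed to 1372 to 1699.6 in late *Dll4* mutants and 1219.5 to 1301 in WT, with 4 of 12 that rose, and epicardial markers were higher in both groups of E12.5 mutants, at 533 to 599 against 389.6 to 501 in *Jag1* and 482 to 506 against 411 to 467 in *Dll4* hearts. Platelet and megakaryocyte markers summed to 13.4 to 18.0 in early *Dll4* mutants and 31.2 to 80.7 in WT, with 6 of 6 wholly below WT and 0 called. There 2295 of 14302 genes lay wholly below WT. In *Jag1* mutants 0 of these 6 were above 0, and *Pf4* fell. Smooth muscle and pericyte markers summed to 1510 to 1541 in early *Dll4* mutants and 1549 to 1632 in WT. Of 8 such markers 5 were above 0 there, and *Cnn1* fell. In *Jag1* mutants 5 of 8 were above 0, and *Acta2* fell. Macrophage markers summed to 118 to 154 in late *Dll4* mutants and 96.5 to 119.8 in WT, with 8 of 8 above 0 and 0 called. Cardiomyocyte markers were lower in *Jag1* mutants, 41335 to 43939 against 44446 to 53548, with 1 of 12 that fell. The mitochondrial share of counts was 4.22% to 4.32% in early *Dll4* mutants and 4.62% to 5.27% in WT, and 5.60% to 6.55% in late *Dll4* mutants and 6.56% to 7.41% in WT. *Jag1* mutants held 12914259 to 18581508 counts and their WT libraries 18182839 to 28464430. The part of these cell types, of the mitochondrial share and of depth in the members' changes was not tested.

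Of the genes listed beside the members in the pathway, 3 were called. Of 31 further genes of glycolysis and glucose transport, 17 to 21 were measured, and 1 rose: *Pklr*, the pyruvate kinase of liver and red cells, in *Jag1* mutants, from a mean of 0.735 to 5.71 (2.12, adjusted p = 0.039, limma). It was 1 of 20 measured there, where 1.12% of all genes were called higher, and its log2 fold change was larger than that of any member. *Pklr* is also a red cell gene, the erythroid sums of these libraries are given above, and their part in its value was not tested. Of 20 genes of glycogen and the pentose phosphate pathway, *Pygl*, a glycogen phosphorylase, rose in *Jag1* mutants (0.43, adjusted p = 0.0365, limma). Of 13 measured genes of pyruvate entry and oxidation, *Pdpr*, a regulator of the pyruvate dehydrogenase phosphatase, fell in early *Dll4* mutants (-0.41, adjusted p = 0.0388, limma). The other comparisons gave 0 calls in these lists.

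Whether the mutants differed from each other was tested as the difference of their effects, and 0 members passed in any of 3 such tests by limma. Of all genes, 0.0145% of 13795 differed between early *Dll4* and *Jag1* loss, 0.324% of 13562 between Dll4GOF and late *Dll4* loss, and 0.288% of 13536 between late and early *Dll4* loss. At an unadjusted p under 0.05, the first difference was above 0 for 1 member and below 0 for 1 (7.52% and 8.97% of all genes). The second, Dll4GOF minus *Dll4* loss, was above 0 for 1 and below 0 for 7 (5.07% and 6.81%), and the third, late minus early, for 0 and 2 (6.49% and 6.38%). The closest were the differences for *Aldoc* and *Pfkp*. The effect of *Dll4* loss on *Aldoc* was lower at E15.5 than at E12.5 by 0.94 (95% interval -1.38 to -0.50, adjusted p = 0.0796, limma). The effect on *Pfkp* was lower in Dll4GOF than in *Dll4* loss by 0.51 (-0.76 to -0.25, adjusted p = 0.0816, limma). Both differences were called by DESeq2 and by limma without late *Dll4* mutant 3. Late and early *Dll4* loss also differ in Cre driver and tissue, which cannot be told apart from stage. For *Pdk1*, called in *Jag1* but not in *Dll4* hearts, the difference was -0.25 (-0.54 to 0.03, adjusted p = 0.352, limma), and for *Hk2* 0.18 (-0.48 to 0.84, adjusted p = 0.802, limma).

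WT levels were set side by side across stages as a description, because stage goes with tissue, RNA kit and separately normalized table, which cannot be told apart. Every E12.5 library was above every later one for 3 members, against 15.9% of 13045 genes, and every later library was above every E12.5 one for 11 members, against 8.44%. The other 19 overlapped. *Slc2a1* had means of 438 and 348 at E12.5 and of 177, 228 and 136 later, *Slc2a3* 50.1 and 45.6 against 27.6, 31.3 and 22.5, and *Pdk3* 106 and 113 against 83.1, 89.1 and 75.2. These were the 3 members higher at E12.5.

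The members higher later included each listed part of the pyruvate dehydrogenase complex and its phosphatase. *Pdha1* had means of 338 and 361 at E12.5 and of 567, 543 and 665 later, and *Pdhb*, *Dlat* and *Pdp1* were likewise higher. The shifts of these genes, *Pdha1* included, were 0.59 to 0.76 on the log2 scale. *Pdk1*, *Pdk2* and *Pdk4* were higher by 0.74, 1.09 and 1.11, so these kinases were higher in the same tables as the complex, while *Pdk3* was lower. *Slc2a4* (0.80), *Pfkm* (0.77), *Aldoc* (0.78) and *Ldhb* (0.84) made up the rest, of which GLUT4 and the muscle phosphofructokinase subunit are known from striated muscle. The median shift of all genes was -0.10. The number higher at E12.5 was 7 without the WT libraries of early *Dll4* and 5 without those of *Jag1*.

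**Figure D3:**
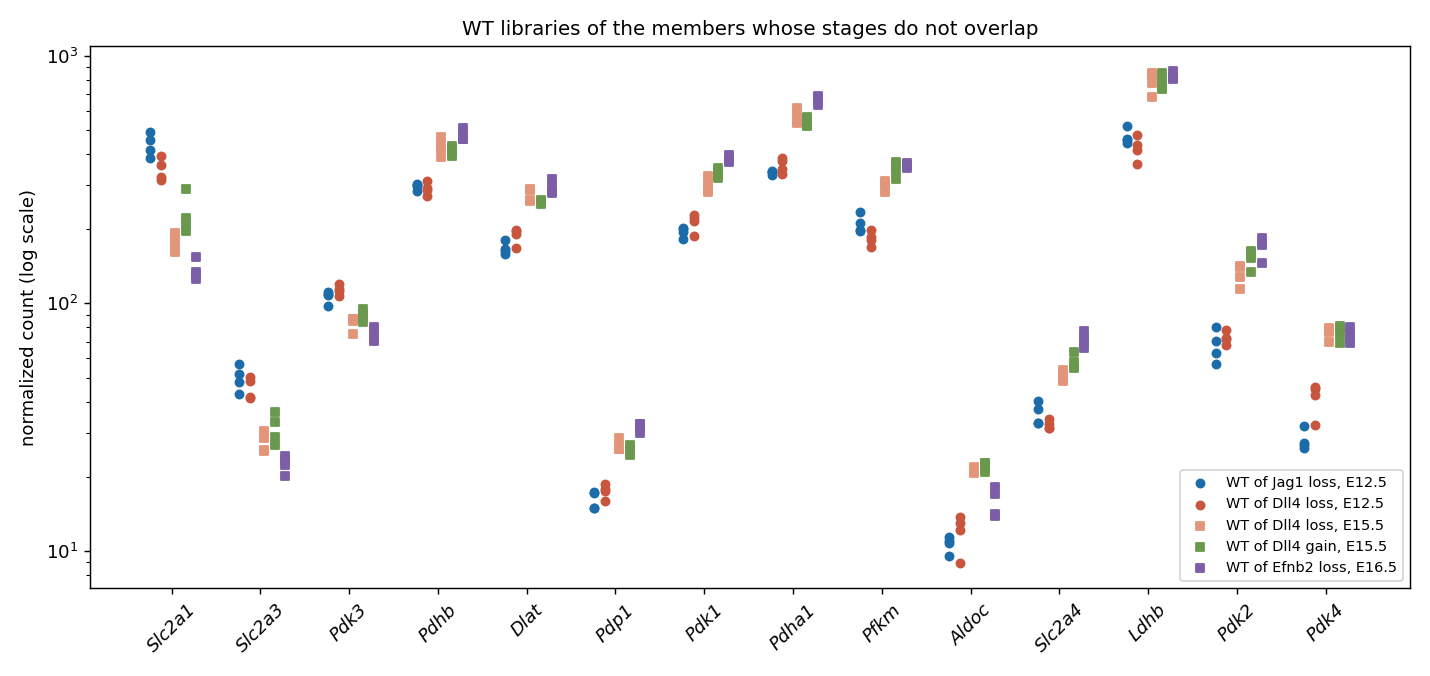
Normalized counts of each WT library, on a log axis, for the 14 members whose E12.5 libraries (circles) and later libraries (squares) do not overlap. *Slc2a1*, *Slc2a3* and *Pdk3* are higher at E12.5 and the other 11 members later, and the tables were normalized separately.

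Per kilobase of exon, *Aldoa* was the most abundant member in every WT group, at 564 to 767 normalized counts, and *Pfkfb4* and *Pfkfb1* the least, at 0.668 to 1.24. Balances between isozymes were followed as log2 ratios within each library, with no test. The ratio of *Slc2a1* to *Slc2a4* had WT means of 3.61 and 3.42 at E12.5 and of 1.801, 1.96 and 0.92 in the later tables. That of *Ldha* to *Ldhb* had 1.86 and 1.81, then 1.10, 1.12 and 0.84, and that of *Pfkm* to *Pfkl* -1.04 and -0.83, then -0.11, -0.16 and 0.25. GLUT1, the lactate-forming subunit and the liver-type subunit each took a larger share in the E12.5 tables.

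Some balances stood apart between mutants and WT, and most of those followed did not. Among single genes, the groups did not overlap for 13.8% (*Jag1*), 31.5% (early *Dll4*), 13% (late *Dll4*), 8.95% (Dll4GOF) and 3.64% (*Efnb2*) of all genes. The share for ratios of other gene pairs was not counted, so the separations below are a description. They are weakest as evidence in early *Dll4* loss, where the share of single genes was largest. In *Jag1* hearts *Ldha* over *Ldhb* was 2.10 to 2.26 in mutants and 1.83 to 1.91 in WT. In *Dll4* hearts at E12.5 *Hk1* over *Hk2* was 0.98 to 1.48 in mutants and 1.97 to 2.13 in WT. *Slc16a1* over *Slc16a3* was lower in mutants in both *Dll4* loss experiments, at -1.05 to -0.45 against -0.34 to -0.04 at E12.5 and -0.58 to -0.04 against 0.09 to 0.42 at E15.5. *Aldoa* over *Aldoc* was lower in mutants at E12.5 (means 6.81 against 7.41 in *Jag1* and 6.52 against 7.12 in *Dll4* hearts) and higher in *Dll4* mutants at E15.5 (7.04 against 6.71). The groups were also apart for *Slc2a1* over *Slc2a4* in late *Dll4* loss (2.27 against 1.801), *Pgam1* over *Pgam2* in *Jag1* loss (1.56 against 1.38), *Pfkm* over *Pfkl* in early *Dll4* loss (-0.95 against -0.83) and *Hk1* over *Hk2* in *Efnb2* loss (2.11 against 2.24), and overlapped for the other ratios.

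**Figure D4:**
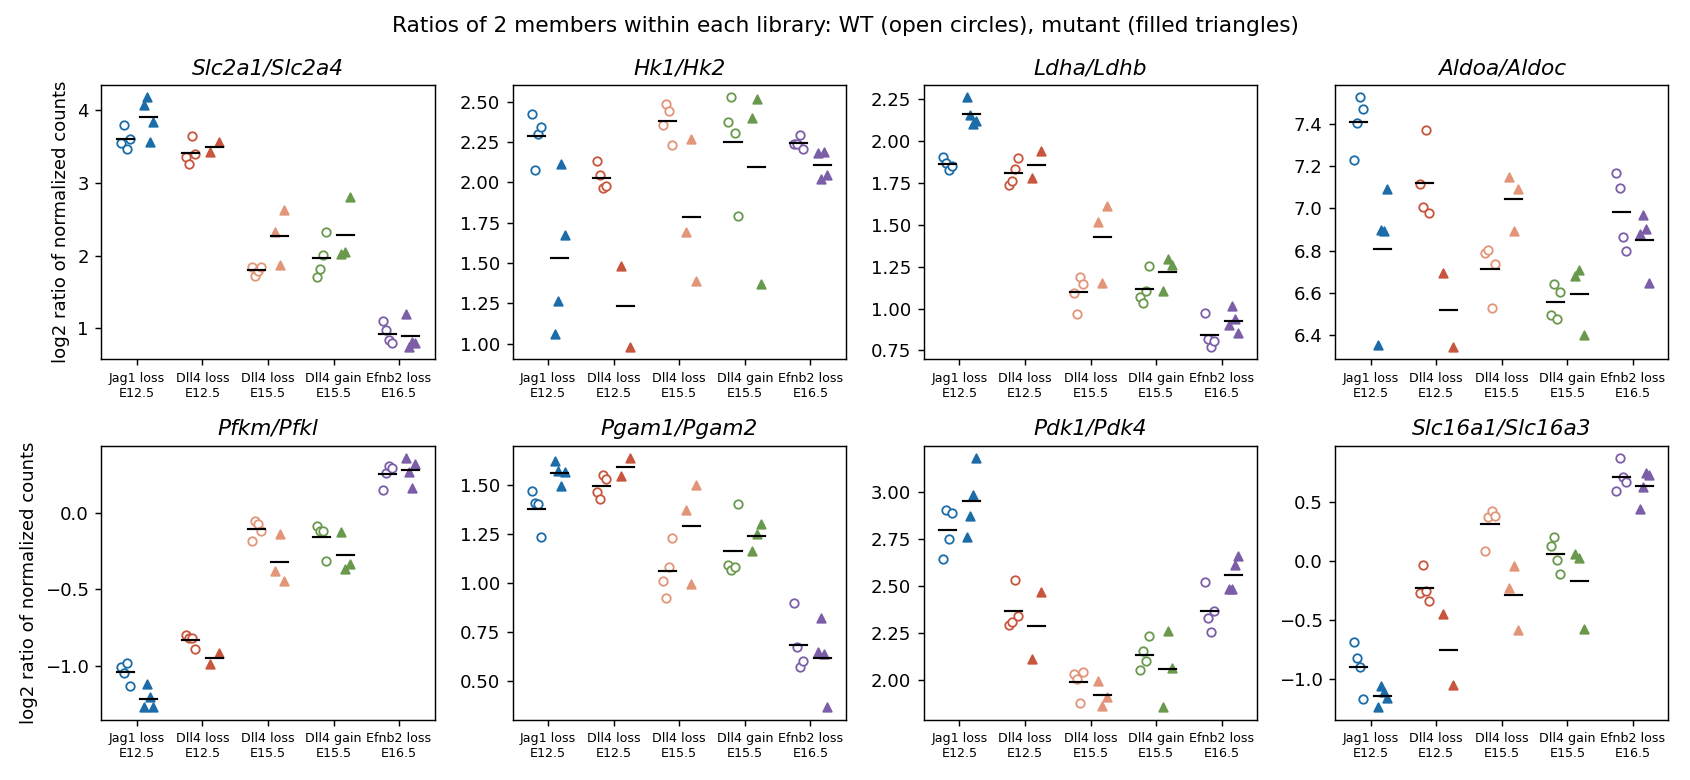
Log2 ratios of 8 pairs of isozymes or related transporters and kinases in each library, WT as open circles and mutants as filled triangles, in the 5 experiments. WT ratios of *Slc2a1* to *Slc2a4* are above 3 at E12.5 and between 0.79 and 2.33 later, and *Hk1* over *Hk2* is lower in both E12.5 *Dll4* mutants than in all of their WT libraries.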

How the data were processed

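RNA-seq of mouse embryonic hearts was analysed in 36 libraries from 5 experiments. The authors trimmed reads with cutadapt 1.6 and estimated expected counts with RSEM on GRCm38 (the labels give 1.2.3 and the study's methods another release), then normalized them with limma. The deposited signal is a normalized count for expressed genes only, the rounded expected count plus 0.5, scaled by an adjusted library size. Every value (100%) came out within 0.01 of a whole count once the scaling was undone, and those counts served the count-based alternatives. Symbols and positions came from GENCODE and promoters from RefSeq. Sample columns with no sample in the labels numbered 0, and no 2 libraries held identical counts.

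Each mutant group was compared with the WT libraries of its own table in limma 3.58.1 (R 4.3.3). Deposited values were taken to log2 after adding 0.5, the variance was trended on mean level, and no replicate block was used. Benjamini-Hochberg adjustment covered all genes with 1 normalized count or more in a number of libraries equal to the smaller group, and calls were made at adjusted p under 0.05. Differences between experiments were fitted as interaction terms. The fits were tested on simulated data. Libraries are separate pools or embryos, and p-values measure the spread between them. Counts per library (7827496 to 28464430) limit precision for weakly expressed members.

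The alternatives were no trend, robust variances, library quality weights, 2 other normalizations, 2 other filters, a pseudocount of 1, an adjusted p under 0.01, edgeR 4.0.16, DESeq2 1.42.0 and voom on recovered counts, a replicate block, and leaving out each library. Library values are given for members called in any comparison and for the 2 with the largest fold change in each. *Gapdh* and *Pgk1* are also given, picked once their values were known. The members, lists and tests were chosen with earlier results of these data known.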

Additional observations from a re-analysis of the deposited data

Results flagged for a closer look

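Among 231 groups of 4 libraries, 1 for each member and group, 14 held a library far from the other 3, and chance alone gives this in about 1 in 20 groups. In *Jag1* WT hearts, WT 4 held 1324 normalized counts of *Pgk1* (the others 1189.7 to 1203) and 1866 of *Ldha* (1630.2 to 1665). In late *Dll4* WT ventricles, WT 2 held 75.2 of *Pdk3* (84.8 to 86.3).

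In Dll4GOF WT ventricles, WT 4 held 42.7 of *Pfkfb3* (26.1 to 28.1), 716 of *Pgam1* (646 to 658) and 270 of *Pgam2* (305 to 311), and WT 2 held 2211 of *Aldoa* (2023 to 2042). The other 7 were *Efnb2* mutants. Mutant 1 held 163 of *Slc2a1* (136 to 137), 26.6 of *Slc2a3* (19.1 to 20.2), 142 of *Slc16a3* (115 to 117) and 282 of *Dlat* (301 to 305). Mutant 2 held 178 of *Slc16a1* (194 to 195) and 441 of *Pdk1* (386 to 393), and mutant 3 held 1090 of *Gpi1* (947 to 965).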

How the results depend on the processing

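All members called in the 5 mutant comparisons, under every alternative run, were higher in mutants. The *Jag1* count of 3 became 1 at an adjusted p under 0.01 or without the mean-variance trend, 6 with library quality weights and 9 with DESeq2, where 0.0572%, 0.343%, 4.58% and 7.89% of all genes were called, against 1.75% in the reported fit. The early *Dll4* count of 4 became 0, 0 and 11 at the stricter threshold, without the trend and with DESeq2 (0.168%, 0.392% and 6.17% of all genes, against 2.17%). The late *Dll4* count of 2 became 0, 0, 12, 1 and 10 at the stricter threshold, without the trend, with quality weights, with quantile normalization and with DESeq2 (0.0288%, 0.036%, 5.69%, 1.04% and 2.49% of all genes, against 1.15%). DESeq2 gave 1 where limma gave 0 for *Efnb2*, for Dll4GOF minus *Dll4* loss and for late minus early *Dll4* loss. Leaving out 1 library gave 1 to 6 for *Jag1* loss and 0 to 8 for late *Dll4* loss. Leaving out 1 WT library gave 0 to 2 for early *Dll4* loss. The counts were 0 to 2 for Dll4GOF minus *Dll4* loss and 0 to 1 for late minus early. Without late *Dll4* mutant 3, these differences were called for 3.38% and 1.25% of all genes. Of 11 other fits at the reported threshold, all 11 called *Pdk1* in *Jag1* hearts, 10 *Pfkfb3* and *Slc16a3*, 9 *Hk2*, *Aldoc* and *Pfkp*, 8 *Slc2a3* in either E12.5 comparison and 7 *Slc2a4*. Dropping the filter could change nothing, since it removed 0 genes. Without the *Jag1* or the early *Dll4* table, 5 and 7 members in place of 3 were higher in WT at E12.5. Apart from the settings named for their construction, the cause of these changes was not tested.

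Same-numbered mutant and WT libraries deviated together weakly (correlations -0.133 to 0.233, above 0.1 in 6 of 15 pairs). Deviations from the means of so few libraries cannot decide whether the numbers pair the samples. With a replicate block, the 3 loss counts were 1, 1 and 4, where 0.551%, 0.177% and 1.32% of all genes were called. With 2 to 4 libraries in a group, small changes of weakly expressed members could not be detected.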
